A study of Rattus norvegicus with 6 samples.

Results

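Genes encoding the subunits of the oxidative phosphorylation system were examined in lung RNA of control rats and of rats with bleomycin-induced pulmonary fibrosis (PF). Members were taken by gene name from the table of linear transcripts, by the name stems of complex I (Nduf), complex II (Sdh), complex III (Uqcr, Cyc1), complex IV (Cox4 to Cox8) and ATP synthase or complex V (Atp5). The rule found 84 of 21655 gene names, with 169 of 70376 transcripts. There were 34 genes in complex I, 4 in complex II, 9 in complex III, 19 in complex IV and 18 in complex V. The set is wider than subunits, since the stems also took in the inhibitor Atp5if1 and the name Cox6c-ps1, whose only transcript is antisense. Both are among the 84 counted. Ndufa4 and Ndufa4l2 were placed in complex IV, of which the Ndufa4 protein is a subunit. The rule also asked for mitochondrially encoded subunits, but it matched 0 gene names of that kind and 0 rows lay on a mitochondrial chromosome. Mitochondrially encoded subunits were therefore not analysed here, and the nuclear genes could not be set against them.

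The samples were lung specimens of Sprague–Dawley rats, aged 7 weeks when the study began. The PF model rats had received bleomycin once at 7 mg/kg by intratracheal instillation, and the control rats the same volume of saline. Lungs were collected 28 days later, and each of the 3 control and 3 PF model rats gave 1 cDNA library from RNA depleted of rRNA. Bleomycin injures the alveolar epithelium and is widely used to induce lung fibrosis in rodents, and a single dose at a single time point was studied here. Surfactant gene Sftpc lay between 2410 and 4146 FPKM over the 6 libraries, and the club cell gene Scgb1a1 between 4065 and 7693 FPKM. FPKM count sequenced fragments relative to transcript length and to the size of the library.

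Oxidative phosphorylation takes place in the inner mitochondrial membrane. Complexes I and II pass electrons from NADH and succinate to ubiquinone, complex III passes them to cytochrome c, and complex IV passes them to oxygen. Complexes I, III and IV pump protons, and ATP synthase uses the returning protons to make ATP. Nearly all subunits are encoded in the nucleus, and their genes are known targets of the factors NRF1, GABPA (an ETS factor, also called NRF2) and YY1. In lung, type II alveolar cells are rich in mitochondria, and some complex IV subunits have forms that are restricted to lung, heart, skeletal muscle or testis.

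Promoters of these genes are shown because shared short motifs are a feature that the choice of genes by name did not use. RefSeq promoters on the GRCr8 build, each 250 bases before to 50 bases after the start, were found for 72 of the 84 genes, 70 by symbol and 2 by an older symbol. The other 12 had no entry. The promoter matched to Cox7a2l2 by symbol lies on chromosome 14, while the measured transcript lies on chromosome 8, so it is of another locus. It held 0 motifs, and the other 71 promoters lie on a chromosome of the measured gene. The motifs searched on both strands were GCGCATGC (the core of NRF1 sites), CCGGAAG (an ETS core) and AAGATGGC (a YY1 core), and 0 of their matches overlapped a match of another motif. One promoter each of complexes I to IV and a pair of complex V, chosen after the matches were seen, follow from 200 bases before to 25 bases after the start, 5′ to 3′ on the gene's strand, with the motif matches in capitals.
Ndufa6 (complex I accessory subunit, chr7:115750293-115750517, minus strand): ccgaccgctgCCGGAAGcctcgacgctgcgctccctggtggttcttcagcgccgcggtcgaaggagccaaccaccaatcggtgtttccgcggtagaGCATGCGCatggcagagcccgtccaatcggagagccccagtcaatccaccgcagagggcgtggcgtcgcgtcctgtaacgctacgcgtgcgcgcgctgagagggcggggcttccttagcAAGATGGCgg
Sdhb (complex II iron-sulfur subunit, chr5:158547734-158547958, plus strand): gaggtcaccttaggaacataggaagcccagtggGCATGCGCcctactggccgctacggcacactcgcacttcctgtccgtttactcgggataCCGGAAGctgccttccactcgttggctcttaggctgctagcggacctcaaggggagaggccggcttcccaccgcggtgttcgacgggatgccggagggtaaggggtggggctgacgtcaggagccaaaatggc
Uqcrc1 (complex III core protein, chr8:118468023-118468247, plus strand): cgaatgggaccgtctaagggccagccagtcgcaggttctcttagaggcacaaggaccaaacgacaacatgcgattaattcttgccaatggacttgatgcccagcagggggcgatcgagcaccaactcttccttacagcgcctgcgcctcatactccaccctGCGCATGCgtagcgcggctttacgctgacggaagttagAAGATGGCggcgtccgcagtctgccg
Cox8a (complex IV subunit, chr1:213833599-213833823, minus strand): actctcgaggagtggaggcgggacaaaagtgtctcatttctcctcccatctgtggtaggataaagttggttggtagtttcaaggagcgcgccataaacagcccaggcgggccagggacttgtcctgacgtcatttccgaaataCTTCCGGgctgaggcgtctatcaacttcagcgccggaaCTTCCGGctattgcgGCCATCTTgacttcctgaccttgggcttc
Atp5mc2 (complex V c subunit, chr7:135678194-135678418, minus strand): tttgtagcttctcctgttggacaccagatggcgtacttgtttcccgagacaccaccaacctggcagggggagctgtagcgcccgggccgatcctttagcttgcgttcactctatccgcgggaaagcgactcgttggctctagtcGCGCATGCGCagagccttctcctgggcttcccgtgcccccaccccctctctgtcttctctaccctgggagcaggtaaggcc
Atp5me (complex V membrane subunit, chr14:1464660-1464884, plus strand): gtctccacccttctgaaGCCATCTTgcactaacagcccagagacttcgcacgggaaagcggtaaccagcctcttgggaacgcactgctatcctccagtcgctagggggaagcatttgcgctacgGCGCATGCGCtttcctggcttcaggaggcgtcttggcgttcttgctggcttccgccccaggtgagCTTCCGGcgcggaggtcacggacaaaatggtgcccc

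The NRF1 core was present in 8 of the 72 promoters (11.1%), against 2.47% of the 33469 rat promoters in the RefSeq table. The ETS core was present in 20 (27.8%, against 8.75%) and the YY1 core in 15 (20.8%, against 3.17%). At least 1 of the motifs was present in 32 promoters (44.4%, against 13.3%), and all of them only in those of Ndufa6 and Atp5me. Among promoters of protein-coding genes alone, the shares were 3.11%, 10.7% and 3.67%. The 8 genes with the NRF1 core were Atp5mc2, Atp5me, Atp5mg, Atp5po, Ndufa11, Ndufa6, Sdhb and Uqcrc1. In Atp5mc2, Atp5me, Atp5po and Ndufa11 the core was read on both strands at the same place, since the palindrome is longer than the letters searched. The YY1 core began at base 2 from the start in Atp5po, at base 4 in Sdhc and at base 5 in Ndufs4 and Ndufs7. The median log2 fold change between PF model and control was 0.17 for the genes with the NRF1 core, 0.12 with the ETS core, 0.21 with the YY1 core and 0.08 for the 40 genes with none of them. These are matches of letters in a fixed window, given as a description and without a test.

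**Figure D1:**
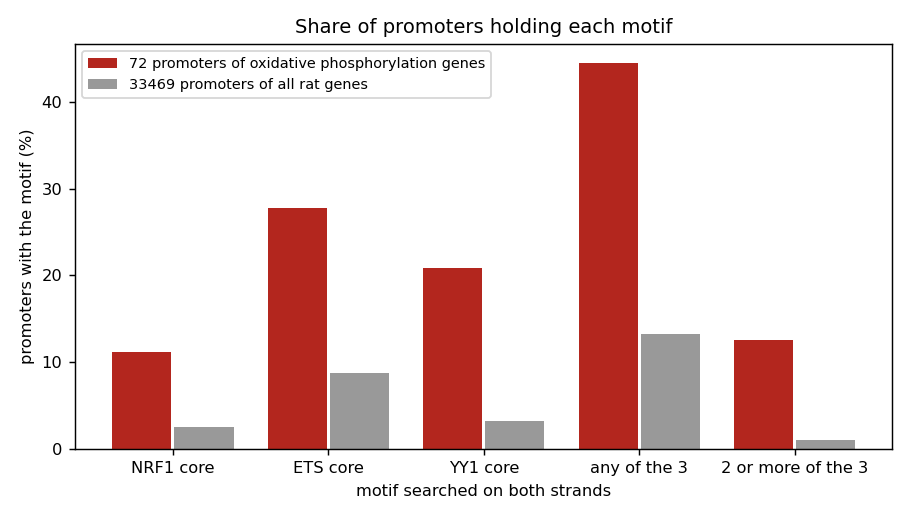
Percentage of promoters with each motif on either strand, for 72 promoters of oxidative phosphorylation genes (red bars) and 33469 promoters of all rat genes (grey bars). The red bar is the taller for each motif, from 11.1% against 2.47% for the NRF1 core to 27.8% against 8.75% for the ETS core.

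Levels of the 84 gene names, as FPKM summed over the transcripts of a name and averaged over both groups, ran from 0.304 for Cox6a2 to 111 for Atp5f1b. The median gene lay at 14.5 FPKM. By complex, the median gene lay at 10.7 FPKM in complex I, 20.7 in complex II, 18.1 in complex III, 19.3 in complex IV and 20.6 in complex V. The 4 genes of complex II had the narrowest span, from 18.9 to 24.2 FPKM. In complex I the 7 nuclear core subunits, which carry the flavin and the iron-sulfur clusters, had a median of 10.6 FPKM, and the 27 accessory subunits a median of 10.9 FPKM. The only transcript under the name Cox6c-ps1, MSTRG.18131.1, is antisense, so its 1.71 to 2.30 FPKM is not a measure of that gene. The main transcript of a gene was taken as its annotated one of highest mean FPKM, where it had any. An assembled transcript could hold more, as for Cox7a1, whose annotated transcript held 2.43% of the FPKM. FPKM of short transcripts are estimated with less certainty, and 26 of the genes had a main transcript under 500 bases. The median of these 26 genes was 14.3 FPKM and that of the other 58 was 14.5 FPKM. Across the 84 genes, level and length of the main transcript had a Pearson r of 0.06 on log2 scales, a description over genes of the same libraries.

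**Figure D2:**
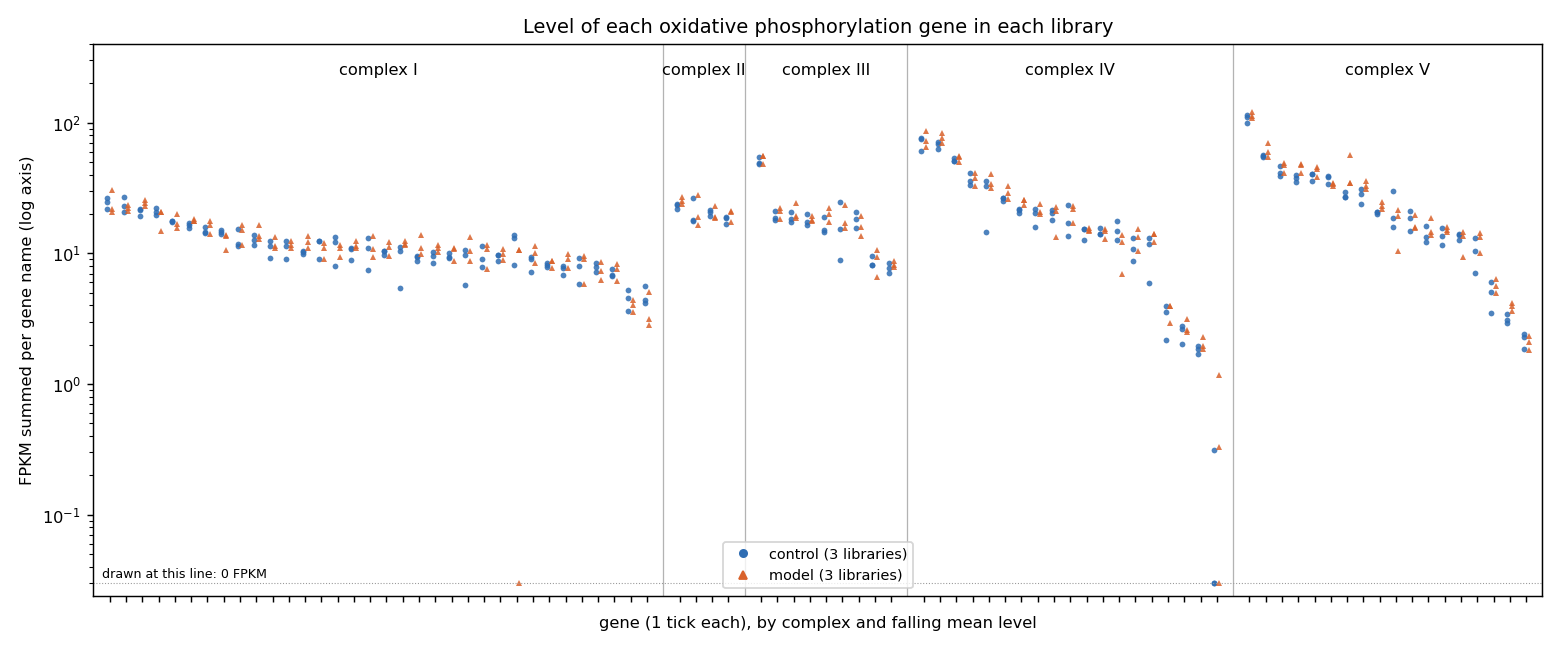
FPKM of each of the 84 genes (log axis) in the 3 control libraries (blue circles) and the 3 PF model libraries (orange triangles), with 1 tick a gene, sorted by falling mean level within each complex. Levels run from 0.304 FPKM for Cox6a2 to 111 FPKM for Atp5f1b, and Ndufa1 and Cox6a2 have libraries listed at 0.

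The genes of highest level in each complex had log2 fold changes between -0.07 and 0.19. Atp5f1b, the catalytic beta subunit of ATP synthase, lay at 108 ± 7.70 FPKM in control and 114 ± 5.67 FPKM in PF model samples (SD, n = 3 each). Atp5f1a, the alpha subunit that alternates with it in the head of the enzyme, lay at 55.6 ± 1.33 and 61.3 ± 7.46 FPKM. Cox4i1, the common form of a regulatory subunit of complex IV, lay at 70.5 ± 8.24 and 74.4 ± 11.1 FPKM. Cox6a1 lay at 67.3 ± 4.34 and 76.8 ± 6.32 FPKM. Uqcrh, the hinge protein of complex III, lay at 50.5 ± 3.13 and 53.2 ± 4.04 FPKM, and Uqcrfs1, its Rieske iron-sulfur protein, at 19.1 ± 1.58 and 20.6 ± 1.92 FPKM. Sdhd, a membrane anchor of complex II, lay at 23.1 ± 1.07 and 25.3 ± 1.64 FPKM. Sdha, the flavoprotein that oxidises succinate, lay at 20.9 ± 5.05 and 21.2 ± 6.10 FPKM. The accessory complex I genes Ndufb4 and Ndufc2 lay at 24.4 ± 2.52 and 24.4 ± 5.53 FPKM, and at 23.5 ± 3.12 and 22.2 ± 1.11 FPKM. None of these 10 genes reached an unadjusted p of 0.05 in the fit described next.

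The groups were compared by limma on log2(FPKM + 1) in a fit of all 19645 gene names that were detected, at any FPKM above 0, in 3 or more samples. All 84 members passed this filter. With thresholds of an unadjusted p up to 0.05 together with group means that differ by 1 log2 unit or more, 0 of the 84 genes were called, where 1.52% of all gene names tested were. With the threshold on p alone, 5 genes were higher in the PF model, or 5.95% of members against 2.14% of all gene names, and 0 were lower, against 2.77%. After Benjamini-Hochberg adjustment 0 members passed, where 0.0102% of gene names did, and the smallest adjusted p of a member was 0.933. The log2 fold change was between -0.5 and 0.5 for 82 of the 84 genes.

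The 5 genes past the unadjusted threshold were Atp5f1d, Cox7a2l2, Atp5mc2, Ndufa7 and Ndufa2. Atp5f1d, the delta subunit in the central stalk of ATP synthase, lay at 35.1, 39.8 and 37.7 FPKM in control 1 to 3 and at 47.4, 41.0 and 48.2 FPKM in model 1 to 3. The lowest PF model sample lay above the highest control, and the log2 fold change was 0.27 ± 0.09 (SE, adjusted p = 0.933). Its main transcript, ENSRNOT00000020670, runs over 4 exons on chromosome 7 from 12426811 to 12429897, in the coordinates of the deposited table, whose genome build is not given in the sources used here. Cox7a2l2, a gene of the Cox7a family, lay at 20.5, 21.8 and 21.5 FPKM in control and at 25.8, 23.3 and 25.6 FPKM in PF model samples, again without overlap. Its log2 fold change was 0.21 ± 0.07 (SE, adjusted p = 0.933), and it has the single transcript ENSRNOT00000066084 on chromosome 8 from 87209530 to 87213627. The RefSeq gene of this name lies on chromosome 14, so which gene of the family was measured is uncertain.

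Ndufa7 and Ndufa2 encode accessory subunits of complex I. Ndufa7 lay at 21.9, 21.4 and 19.3 FPKM in control and at 24.1, 23.1 and 25.7 FPKM in PF model samples, a log2 fold change of 0.21 (adjusted p = 0.933). Ndufa2 lay at 10.4, 10.2 and 9.86 FPKM in control and at 11.0, 12.2 and 13.6 FPKM in PF model samples, a log2 fold change of 0.25 (adjusted p = 0.933). In both genes the groups did not overlap, by a margin smaller than the range of the PF model samples. Ndufa2 is on chromosome 18 from 29585671 to 29587760, with 1 transcript of 3 exons.

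Atp5mc2 had the largest positive log2 fold change of all members, 0.55 (adjusted p = 0.933). It is 1 of 3 genes that encode the same mature c subunit, which forms the rotating ring of ATP synthase, with different import sequences. It lay at 29.3, 26.9 and 26.8 FPKM in control and at 34.8, 56.4 and 34.7 FPKM in PF model samples, so model 2 stood apart from the other libraries. Without model 2 the log2 fold change was 0.32, still past the unadjusted threshold. With each transcript weighted by its length the log2 fold change was 0.12, and with annotated transcripts alone it was 1.42, in both cases short of the unadjusted threshold. The fold change thus moved with the weight given to an annotated transcript of 617 bases and an assembled one of 1626 bases. Of the other c subunit genes, Atp5mc3 lay at 20.8, 19.9 and 20.7 FPKM in control and at 23.0, 22.0 and 24.6 FPKM in PF model samples, without overlap (adjusted p = 0.933). Atp5mc1 lay at 13.7, 11.6 and 15.7 FPKM and at 14.6, 15.9 and 15.1 FPKM. The sum of these 3 genes was 63.8, 58.4 and 63.2 FPKM in control and 72.4, 94.3 and 74.5 FPKM in PF model samples.

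The number of genes at an unadjusted p of at most 0.05 depended on single libraries. It was 5 with all libraries (5.95% of members, against 4.91% of all gene names in either direction). It was 3 without control 1 (3.57%, against 5.09%), 3 without control 2 (3.61%, against 4.33%) and 0 without control 3 (against 3.8%). It was 5 without model 1 (5.95%, against 5%), 10 without model 2 (12%, against 5.7%) and 1 without model 3 (1.2%, against 4.34%). The share of members thus lay on either side of the share of all gene names. It depended on the scaling too, with 12 genes after rescaling to TPM (14.3%, all higher, where 3.58% of all gene names were so in the higher direction) and 7 after median-ratio scaling (8.33%, all higher, against 2.33%). It was 2 (2.38%, both higher, against 1.72%) after leaving out the gene names of Rfam families of small RNAs, which held between 34.1% and 46.4% of the summed FPKM of a library. With the thresholds on p and fold together, 0 genes were called with all libraries and 1 without model 1. That gene was Cox6a2, the lowest of the members, whose log2 fold change on log2(FPKM + 1) was then 0.64 (adjusted p = 0.924 in limma). Leaving out any other single library gave 0 called genes, where between 1.6% and 2.05% of all gene names were called without 1 library.

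The sign of the change was more often positive than over all genes. The fitted log2 fold change was above 0 in 63 of the 84 genes (75.0%), where it was above 0 in 47.5% of all gene names tested. The median was 0.10 over the members and -0.01 over all gene names. By complex the median was 0.08 in complex I (23 of 34 genes above 0), 0.07 in complex II (3 of 4), 0.07 in complex III (8 of 9), 0.14 in complex IV (16 of 19) and 0.14 in complex V (13 of 18). The 7 core genes of complex I had a median of 0.09 and the 27 accessory genes a median of 0.08. Without model 3 the median over the members was 0.05, with 58 of 83 genes above 0, and without model 2 it was 0.14, with 67 of 83. Rescaling to TPM gave 0.19, with 70 of 84 genes above 0 (83.3%, against 61.3% of all gene names), while the median of all gene names rose to 0.05. In bulk tissue such as this, a change in the number of cells of a type and in RNA per cell cannot be told apart.

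**Figure D3:**
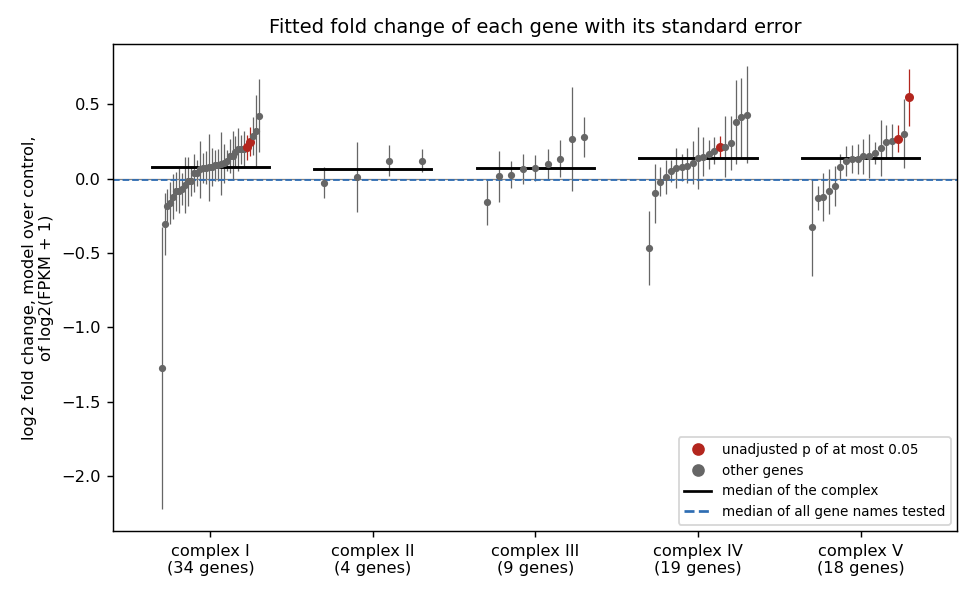
Log2 fold change of log2(FPKM + 1) between 3 PF model and 3 control samples for each gene, with its standard error, by complex. Black lines mark the median of a complex (0.07 to 0.14), the dashed blue line the median of all gene names tested (-0.01) and red points the 5 genes with an unadjusted p of at most 0.05. The lowest point is Ndufa1, which is listed at 0 in model 2.

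The groups did not overlap in 12 genes. PF model samples were all higher in 11 of the 84 genes, against 4.82% of gene names tested, and all lower in 1, against 5.87%. The 11 genes were the 5 above, Atp5mc3, and the further genes Ndufs8, Ndufv1, Ndufa8, Ndufa13 and Atp5pf, which are named after their values were seen. Ndufs8 and Ndufv1 are core subunits of complex I, of which Ndufv1 binds the flavin that accepts electrons from NADH. Ndufv1 lay at 15.7, 17.0 and 16.5 FPKM in control and at 17.7, 17.7 and 18.4 FPKM in PF model samples. Ndufs8 lay at 8.73, 9.45 and 9.51 FPKM in control and at 11.0, 9.92 and 13.7 FPKM in PF model samples. The single gene in the other direction was Ndufs4, an accessory subunit of complex I, at 15.01, 14.5 and 14.1 FPKM in control and at 13.7, 13.9 and 10.7 FPKM in PF model samples (adjusted p = 0.933). These sums include a single-exon transcript past the end of the gene, MSTRG.18827.1, and an antisense one, MSTRG.18829.1. The annotated transcript of Ndufs4, ENSRNOT00000015217, overlapped between the groups, at 11.0, 10.7 and 9.92 FPKM in control and at 10.9, 9.99 and 8.75 FPKM in PF model samples. Of the 11 genes that were higher, all 11 stayed apart with annotated transcripts and those that share a junction together, but 5 overlapped with annotated transcripts alone. These 5 were Atp5mc2, Atp5mc3, Ndufs8, Ndufv1 and Ndufa8. The counts moved with the scaling too. All PF model samples were higher in 20 members after rescaling to TPM (against 8.48% of all gene names) and in 15 after median-ratio scaling (against 5.33%). They were higher in 6 after leaving out Rfam-named genes (against 3.88%). Under each of these scalings 0 members were all lower, against 2.42%, 5.65% and 2.55%.

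Ndufa8, an accessory subunit of complex I, lay at 11.2, 10.5 and 5.38 FPKM in control and at 11.6, 11.7 and 12.5 FPKM in PF model samples. Its assembled transcript MSTRG.22657.2 was listed at 0 in control 3, while it lay between 5.999 and 6.68 FPKM in the other 5 libraries. Its annotated transcript ENSRNOT00000084069 lay between 4.31 and 6.11 FPKM in all 6 libraries.

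Summed over the members, FPKM was 1632, 1560 and 1549 in control 1 to 3 and 1699, 1607 and 1782 in model 1 to 3, so model 2 lay between control 2 and control 1. The sums did not overlap after median-ratio scaling, where model 2 lay at 1649 and the highest control at 1620, or after rescaling to TPM, where they lay at 3034 and 2986. They overlapped with annotated transcripts alone, with length-weighted sums and after leaving out Rfam-named genes. Of the complexes, V alone had sums of the deposited FPKM that did not overlap, at 505, 476 and 508 FPKM in control and 546, 524 and 559 FPKM in PF model samples, a ratio of 0.13 on the log2 scale. In the deposited FPKM the place of model 2 above all controls rested on Atp5mc2. That gene lay at 56.4 FPKM in model 2 and at 26.8 to 29.3 FPKM in control. This difference is larger than the gap between the complex V sums of model 2 and control 3. The separation of the complex V sums held with annotated transcripts alone, after median-ratio scaling and after rescaling to TPM. It was lost with length-weighted sums and after leaving out Rfam-named genes. With annotated transcripts alone the sum was 450 FPKM in model 2 and 431 FPKM in control 3. The Atp5mc2 transcript ENSRNOT00000020676 lay at 54.0 and 18.3 FPKM in these libraries, so there too the place of model 2 rested on Atp5mc2. The F1 part of complex V, from Atp5f1a to Atp5f1e, overlapped between the groups, with model 2 at 276 FPKM and control 1 at 281 FPKM. The complex IV sums were 453, 440 and 401 FPKM in control and 477, 431 and 496 FPKM in PF model samples. The complex I sums were 415, 393 and 382 FPKM in control and 409, 390 and 442 FPKM in PF model samples. No test was made of these sums, since they add the same genes that are tested singly.

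Model 3 held the highest value of 42 of the 84 genes (50%), while it held the highest value of 23.6% of all gene names tested. The share of members was 45.2% after median-ratio scaling (against 20.8% of all gene names) and 63.1% after rescaling to TPM (against 31.2%). It was 27.4% after leaving out the Rfam-named genes (against 20.3%), where model 1 held the highest value of 48.8% of members and of 32.2% of all gene names. The lowest values fell most often in control 3 (26 genes), control 2 (21) and model 2 (18). The median deviation of the members from their mean over all libraries was 0.16 log2 units in model 3 and between -0.07 and 0.04 in the other libraries. By this median of the deposited FPKM the 2 groups overlapped, with model 2 below control 1.

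**Figure D4:**
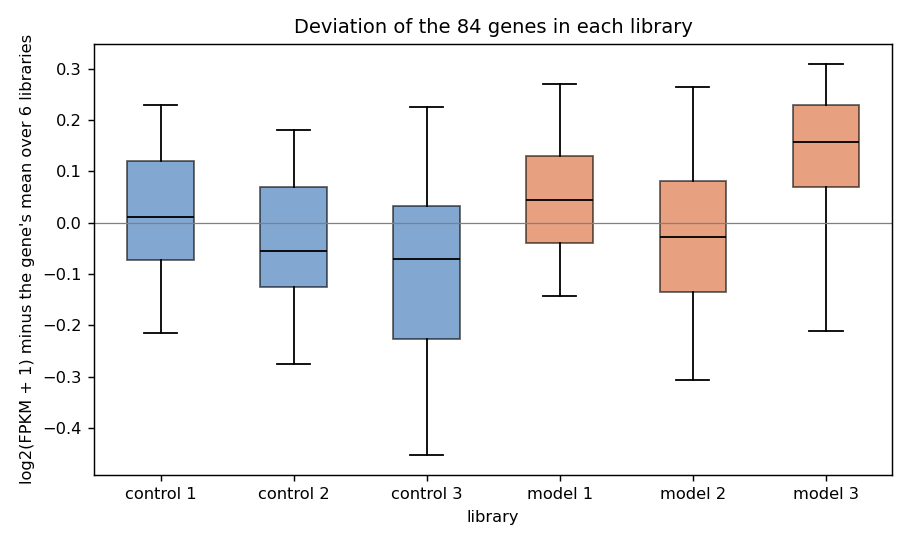
Deviation of log2(FPKM + 1) of the 84 genes from each gene's mean over 6 libraries (boxes span the quartiles with the median as a line, whiskers the 5th to 95th percentile). Medians are 0.16 in model 3 (orange, right) and from -0.07 to 0.04 in the other libraries, and model 2 lies below control 1 in the FPKM as deposited.

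Markers of heart muscle moved with the same library. Muscle sleeves of the pulmonary veins are a known source of such transcripts in rodent lung, and heart muscle is rich in mitochondria. The summed FPKM of the 10 heart muscle markers was 35.5 in model 3 and between 6.94 and 12.1 in the other 5 libraries. Myh6, the main myosin of rodent heart, lay at 5.11 FPKM in model 3, 0.0339 in model 2 and 0 in the remaining libraries. Mb, encoding myoglobin, lay at 1.998 FPKM in model 3 and 0 in the other 5. Tnnt2, cardiac troponin T, lay at 4.65 FPKM in model 3 and between 0.432 and 0.708 in the others. Nppa, at or below 0.167 FPKM in every library, was the only marker of this list at an unadjusted p of at most 0.05. Its values in the PF model samples were not highest in model 3. The heart muscle markers' part in the high values of model 3 was not tested. Summed skeletal muscle markers ranged from 3.03 to 9.67 FPKM in control and from 4.06 to 6.34 FPKM in PF model samples, with Ckm, the muscle creatine kinase, at 0 in 4 of the 6 libraries. The brown fat marker Ucp1 was at or below 0.0392 FPKM in all libraries, and the white fat markers Adipoq and Plin1 summed to at most 0.818 FPKM. Markers of ciliated cells, which are rich in mitochondria as well, summed to 15.4 FPKM in control 3 and 16.1 FPKM in model 3 and to between 7.39 and 10.1 FPKM in the other libraries.

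The tissue-restricted forms of complex IV subunits were set against their common partners within each library. For 7 of the 10 pairs listed both gene names were in the table. Exact two-sided permutation tests gave p between 0.1 and 0.8, where 0.1 is the smallest that 3 against 3 samples allow, and adjusted p between 0.7 and 0.8 over the 7 pairs. Differences below are of log2((FPKM + 1)/(FPKM + 1)), PF model minus control. The added 1 weighs most in low genes and leaves the ratio dependent on scaling.

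Cox4i2, a form of Cox4 abundant in lung and used in oxygen sensing, lay at 13.2, 10.8 and 8.80 FPKM in control and at 15.4, 10.5 and 13.3 FPKM in PF model samples. Its ratio to Cox4i1 differed by 0.17 (exact permutation p = 0.5). Ndufa4l2, a paralog of Ndufa4 that is induced by hypoxia, lay at 16.9, 23.3 and 13.6 FPKM in control and at 21.7, 17.2 and 23.1 FPKM in PF model samples. It was at about the level of Ndufa4, which lay between 12.9 and 15.7 FPKM, and the ratio differed by 0.24 (exact permutation p = 0.4). The annotated transcript of Ndufa4l2, ENSRNOT00000045083, made up only 4.69 to 8.80 FPKM of its sum, and an assembled fragment of 270 bases next to it made up 5.91 to 12.8 FPKM. The ratio of annotated transcripts alone differed by 0.22 (exact permutation p = 0.4).

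Cox7a1, Cox6a2 and Cox8b are the forms found in heart and skeletal muscle of rodents. Cox6a2 was listed at 0 in control 1, control 3 and model 1, and lay at 0.312 FPKM in control 2, 0.331 in model 2 and 1.18 in model 3. Its highest value was thus in the library with the highest heart muscle markers. In the libraries where it was listed at 0, its ratio to Cox6a1 was set by Cox6a1 alone. The ratio differed by 0.19 with all libraries and by -0.06 without model 3 (exact permutation p = 0.7 and 0.8). Cox8b lay at 3.97, 3.56 and 2.16 FPKM in control and at 2.95, 3.92 and 3.94 FPKM in PF model samples, beside 49.8 to 55.9 FPKM for Cox8a. Its ratio to Cox8a differed by 0.09 and changed sign without control 3 (-0.10) or model 2 (-0.01). Cox7a1 lay at 13.2, 5.93 and 11.7 FPKM in control and at 14.0, 12.2 and 14.0 FPKM in PF model samples. Its annotated transcript of 243 bases held 0 to 0.820 FPKM of this. An assembled transcript of 2533 bases on the same strand, MSTRG.1473.1, which shares a splice junction, held 2.43 to 9.64 FPKM. An antisense transcript, MSTRG.1472.1, held 3.35 to 5.51 FPKM, so the name's sum is not a measure of Cox7a1 mRNA alone. The name of its partner, Cox7a2, was not in the table used here. Whether that gene is listed under another name, such as Cox7a2l2, was not tested.

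Cox6b2, a form known from testis, lay at 2.02 to 2.77 FPKM in control and 2.48 to 3.13 FPKM in PF model samples, beside 25.1 to 32.9 FPKM for Cox6b1. The ratio of the c subunit genes Atp5mc1 and Atp5mc2 had the smallest p of the pairs, with a difference of -0.40 (exact permutation p = 0.1, adjusted p = 0.7), and -0.28 without control 3 and -0.20 without model 2. Cox7b, the partner of a form not in the table, lay at 18.1 to 21.5 FPKM in control and at 22.7, 21.0 and 13.3 FPKM in PF model samples. It was therefore lowest in model 3, the library that held the highest value of 42 members.

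Ndufa1, a small membrane subunit of complex I encoded on the X chromosome, had the largest negative log2 fold change, -1.27 (adjusted p = 0.933). It lay at 13.02, 8.14 and 13.9 FPKM in control and at 10.6 and 10.7 FPKM in model 1 and model 3, and was listed at 0 in model 2. Without model 2 the log2 fold change was -0.09. Its only transcript, ENSRNOT00000061493, has 213 bases. Tpi1, an enzyme of glycolysis that every cell uses, was also listed at 0, in control 3 and model 1, so a 0 in this table can be a failed estimate. Apart from Ndufa1 and Cox6a2, all members were above 0 in all 6 libraries.

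The division of a gene's FPKM between its transcripts varied from library to library. Of the 48 members with 2 or more transcripts, the transcript of highest FPKM was not the same in all 6 libraries in 19 (39.6%). The share was 55.5% among 6211 gene names with 2 or more transcripts and a level between the 10th and 90th percentile of the members. The leading transcripts separated PF model from control samples in 0 of the 19 genes. They did so in 158 (4.58%) of the 3450 compared gene names whose leading transcript was not the same in all libraries. For Sdha, the annotated transcript ENSRNOT00000018336 lay at 21.6 FPKM in control 2 and 23.1 FPKM in model 1, and between 0.0711 and 0.495 FPKM in the other libraries, where the assembled transcripts MSTRG.450.2 and MSTRG.450.3 took its place. The sum was 18.1, 26.7 and 17.8 FPKM in control and 28.1, 16.5 and 19.1 FPKM in PF model samples, so the libraries with the shorter transcript had the higher sums. Its locus is on chromosome 1 from 31545631 to 31570601.

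Cox4i2 had 4 different leading transcripts over the 6 libraries. The annotated one, ENSRNOT00000010418, lay at 12.4 FPKM in control 1, 10.1 in model 1 and 9.02 in model 3, and at 0 to 0.139 FPKM in the other libraries. The leading transcript of Ndufs7, a core subunit with an iron-sulfur cluster, was the annotated ENSRNOT00000039728 in model 2 alone, at 12.3 FPKM, with 0 in all control samples. MSTRG.32001.2 led in model 1 and MSTRG.32001.1 in the other 4 libraries. The sum of Ndufs7 was 5.75, 10.6 and 9.70 FPKM in control and 8.81, 13.4 and 10.5 FPKM in PF model samples. For Atp5mc2, MSTRG.33971.3 led in control 1 and control 2, and ENSRNOT00000020676 in the other 4 libraries, with 54.0 FPKM in model 2. These genes were chosen after their values were seen.

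**Figure D5:**
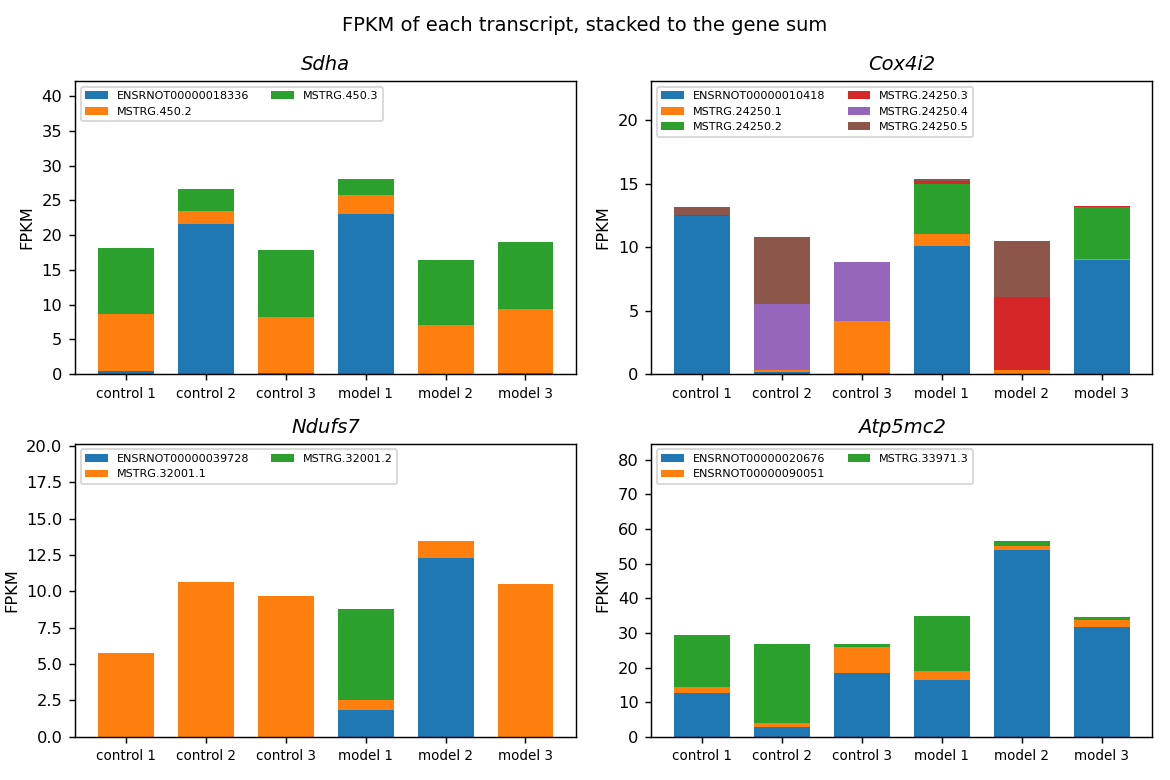
FPKM of each transcript of Sdha, Cox4i2, Ndufs7 and Atp5mc2 in each library, stacked to the sum of the gene name. The leading transcript changes between libraries of 1 group, as for Sdha, whose annotated transcript (blue) lies at 21.6 FPKM in control 2 and 23.1 FPKM in model 1 and below 0.5 FPKM elsewhere.

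Of the member transcripts, 163 passed the filter among 64867 tested. With the thresholds on p and fold, 1 was called, against 2.98% of all transcripts, and 6 had an unadjusted p of at most 0.05, against 4.53%. After adjustment 0 passed, against 0.0277%, and the smallest adjusted p was 0.945. The number called was 2 without control 1, 3 without control 2, control 3 or model 1, and 4 without model 2 or model 3, where between 3.27% and 3.92% of all transcripts were called. The called transcript was MSTRG.29138.1 of Atp5if1, the inhibitor of ATP synthase that acts when the proton gradient falls. It lay at 0.481, 1.35 and 0.521 FPKM in control and at 2.12, 1.86 and 1.82 FPKM in PF model samples (adjusted p = 0.945). The annotated transcript of Atp5if1 lay at 11.4, 12.5 and 9.94 FPKM in control and at 10.1, 9.97 and 14.4 FPKM in PF model samples. The smallest p belonged to MSTRG.15761.1, listed under the name Atp5f1c and classed as intronic. It had 3.38, 3.37 and 2.44 FPKM in control and 1.83, 1.38 and 1.59 FPKM in PF model samples (adjusted p = 0.945). It starts at base 72263377, past the end of the 9-exon Atp5f1c transcript at 72231551, so it is not a measure of that transcript.

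The sums were made mostly of annotated transcripts, which include annotated copies at other loci under the same name. Annotated transcripts held 82.2% of the FPKM of the members, assembled transcripts that share a splice junction held 14.3%, and intronic, antisense, neighbouring and overlapping transcripts together carried reads in 17 members. Atp5f1c, the gamma subunit in the rotor of ATP synthase, had 11 transcripts under its name over a stretch of chromosome 17. Its annotated 9-exon transcript ENSRNOT00000064802 lay between 13.2 and 17.3 FPKM, beside 32.8 to 39.1 FPKM for the name's sum. That transcript ends at base 72231551, and a second annotated one, ENSRNOT00000025993, runs from 72240802 to 72394271 without overlap. The 8 intronic or overlapping assembled transcripts of the name lie within the second stretch. The name's sum therefore holds signal from outside the 9-exon transcript, and it enters the F1 and complex V sums. The names of Cox6b1, Ndufa10l1, Ndufv3 and Uqcrb each joined loci on more than 1 chromosome. For Uqcrb, the ubiquinone-binding protein of complex III, a single-exon copy on chromosome 1 held 8.56 to 14.4 FPKM and the 4-exon gene on chromosome 7 held 3.60 to 4.38 FPKM. Reads of near-identical copies cannot be divided with certainty, so the levels of these 4 genes and of Cox6c-ps1 are uncertain. The level of Atp5f1c is uncertain too, for the transcripts outside its 9-exon one.

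Lists of genes that build or accompany the complexes were read from the same fit. Of all gene names tested, 4.91% had an unadjusted p of at most 0.05 in either direction and 47.5% were above 0. Of 52 assembly factors of the 5 complexes, 49 were tested, with 27 above 0 (55.1%) and a median log2 fold change of 0.03. Coa7, an assembly factor of complex IV, was at an unadjusted p of at most 0.05 in the higher direction, with 1.08, 0.956 and 0.920 FPKM in control and 2.02, 1.20 and 2.68 FPKM in PF model samples (adjusted p = 0.933). Cox16, another, was so in the lower direction, with 10.7, 11.7 and 12.5 FPKM in control and 10.1, 10.0 and 9.07 FPKM in PF model samples (adjusted p = 0.933). Among 19 regulators of mitochondrial biogenesis, 8 were above 0 (42.1%), the median was -0.01, and 0 were at an unadjusted p of at most 0.05. These include the factors whose motifs are printed above. Nrf1 lay at 9.76 to 12.2 FPKM in control and 9.50 to 10.9 FPKM in PF model samples. Gabpa lay at 4.93, 5.40 and 5.95 FPKM in control and at 4.67, 4.52 and 4.01 FPKM in PF model samples (adjusted p = 0.933). Yy1 lay at 5.19 to 7.62 FPKM and 5.27 to 7.27 FPKM. The coactivator Ppargc1a, encoding PGC-1alpha, lay at 8.66, 9.76 and 7.39 FPKM in control and at 8.95, 5.83 and 6.73 FPKM in PF model samples.

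In the TCA cycle, which feeds the chain with NADH and succinate, 7 of 11 genes tested were above 0 (63.6%) with a median of 0.10. Suclg2, a subunit of succinate-CoA ligase, was the only 1 of them past the unadjusted threshold, at 13.7, 13.3 and 15.3 FPKM in control and 18.3, 18.2 and 21.6 FPKM in PF model samples (adjusted p = 0.933). With length-weighted sums its log2 fold change fell from 0.43 to 0.03. Of 16 genes of glycolysis, 14 were above 0 (87.5%, against 47.5% of all gene names) with a median of 0.16. Pfkm and Ldha, 2 of the 16, were past the unadjusted threshold, where 4.91% of all gene names were. Pfkm, the muscle form of phosphofructokinase, lay at 3.54, 4.03 and 4.14 FPKM in control and at 5.75, 5.60 and 5.51 FPKM in PF model samples (adjusted p = 0.933). Ldha, a subunit of lactate dehydrogenase, lay at 38.2, 37.2 and 36.3 FPKM and at 44.5, 39.1 and 45.4 FPKM (adjusted p = 0.933). Of 12 genes of the outer membrane and of protein import, 4 were above 0 (33.3%) and 0 were past the unadjusted threshold. Of 10 other respiratory genes tested, 6 were above 0 (60%) with a median of 0.03, and 0 were past it.

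Circular RNAs of the members were nearly absent at this depth. Of 5216 circular RNAs in the table, 5 came from 4 member genes, with 6 of 14904 back-splice reads. Sdha gave a circle of 11 exons with 2 reads in model 1, Uqcrc2 gave circles with 1 read in model 1 and 1 read in model 2, and Ndufa10l1 gave 1 read in model 1. Cox7c gave an intronic circle with 1 read in control 1. No comparison of groups is possible from these reads, and the libraries held between 2037 and 2964 back-splice reads each.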

How the data were processed

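Processed files of 6 lung samples, 3 control and 3 PF model rats, were used, with groups taken from the sample titles. For linear RNAs the authors used Cutadapt for trimming, Bowtie2 with Tophat2 for mapping and StringTie for an assembly merged over libraries, and deposited FPKM of each transcript as StringTie and Ballgown gave them. The submitters' processing notes also name HISAT2. The authors deposited per-base coverage, a signal not scaled for depth, and raw counts of back-splice reads from CIRCExplorer. Deposited SRPBM values were not used. The genome build is not given in the sources used here.

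FPKM were summed per gene name. Reads per library, estimated as coverage times length over a read length of 150 bases, came to between 64988 and 80243 over the members, with a median of 505 per member. FPKM are not counts, so no count test was used and no counting interval is given. Gene names, and likewise transcripts, detected in 3 or more samples (FPKM above 0) were tested with limma 3.58.1 (with trend, R 4.3.3) on log2(FPKM + 1), two-sided, with Benjamini-Hochberg adjustment over all features tested. With a pseudocount of 1 the fold changes of low genes are understated. Ratios of paired genes were tested with exact permutation tests. The limma fits of genes and transcripts were checked on simulated data, and the permutation tests were not. The members and gene lists were chosen with earlier results of these data known. The genes named are the 2 of highest level in each complex, those at an unadjusted p of at most 0.05, the paired genes, those listed at 0 and those of extreme fold change, beside genes named as chosen later. The planned ratio of mitochondrial to nuclear FPKM could not be made, since 0 mitochondrial members were found. Alternatives were other pseudocounts, filters, sums, scalings and tests, a replicate block and each sample left out. A limit to transcripts that match or share a junction with the annotation, and sums by complex under other processing, were added after the data were seen. Versions were scipy 1.17.1, numpy 2.4.6 and pandas 2.3.3 under Python 3.11.15, with matplotlib 3.10.9 for the plots. Values of 1 gene are not reported here by name.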

Additional observations from a re-analysis of the deposited data

How the results depend on the processing

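No member was called under any scaling, filter, sum or test tried, and without 1 sample the number called was 0 to 1. The count at an unadjusted p of at most 0.05, 5 in the analysis as reported, was 3 with annotated transcripts alone, 12 after rescaling to TPM, 2 without Rfam-named genes and 0 to 10 without 1 sample. The median log2 fold change of 0.10 became 0.19 after rescaling to TPM and 0.05 to 0.14 without 1 sample. Of member transcripts, 1 was called as reported, 2 with a pseudocount of 0.1 and 2 to 4 without 1 sample. With the replicate number as a block, 4 members had a p of at most 0.05 (3 higher), and 0 were called. Samples of the same number had correlations of 0.07, 0.03 and -0.09 in their deviations from the group means, so the numbers were not read as pairs.

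With annotated transcripts alone the log2 fold change turned to -0.077 for Atp5mc3, -0.10 for Coa7 and -0.14 for Sdha, and the Cox6b2 to Cox6b1 ratio to 0.018. After rescaling to TPM it turned to 0.062 for Ndufa4, 0.066 for Ndufb4 and 0.012 for Ndufc2, and without Rfam-named genes to 0.034 for Ndufa4 and 0.036 for Ndufb4. All of these were short of the unadjusted threshold. Without 1 sample the ratio differences ranged from -0.055 to 0.45 for Cox6a2 to Cox6a1, from -0.21 to 0.074 for Cox6b2 to Cox6b1 and from -0.10 to 0.22 for Cox8b to Cox8a. The log2 fold changes whose sign turned without 1 sample were -0.041 to 0.17 for Cox4i1, -0.24 to 0.13 for Cox7b, -0.056 to 0.27 for Cox8b, -0.068 to 0.055 for Ndufa4, -0.19 to 0.085 for Ndufb4, -0.16 to 0.025 for Ndufc2 and -0.20 to 0.20 for Sdha. The cause was not tested. Precision is limited for short or low transcripts. The mitochondrial to nuclear ratio was not run, since no mitochondrial member was found.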
